A study of Danio rerio with 6 samples.

Results

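Untreated whole zebrafish embryos of the TL strain were compared at 2 ages, 5 and 21 hours post-fertilization (hpf). The comparison used the 2 arrays of the series' 6 that carry untreated embryos, chosen by their titles: 1 array at 5 hpf and 1 at 21 hpf. The other 4 arrays carry TL embryos at 21 hpf injected with about 2.5 pmol of a morpholino (an antisense oligonucleotide), 2 with one against Spt5 and 2 with a control morpholino. They served as a measure of error and to choose genes that differ with the Spt5 morpholino. Spt5 is a subunit of the factor DSIF, which binds RNA polymerase II and acts in pausing and elongation. The study's design text sets the genes affected by the Spt5 morpholino against their difference between these ages. The labels give neither the number of embryos pooled for an array nor their clutches.

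At 5 hpf the embryo is a late blastula whose blastoderm spreads over the yolk cell. Its genome has recently been switched on, and transcripts laid down in the egg are being cleared. By 21 hpf the embryo has a segmented trunk with working muscle, a subdivided brain, eye primordia, primitive blood, an epidermis and a yolk syncytial layer that exports yolk lipid. Whole embryos were measured, so a transcript held by fewer cells and one held at a lower level per cell cannot be told apart.

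The arrays measured 15502 probe sets besides Affymetrix controls, and levels are given as log2 of intensity after quantile normalization of the 2 arrays. A level of log2 5, an intensity of 32, was taken as the limit of detection, and 9294 probe sets reached it at 1 age or both. Of these, 5306 reached it at both ages, 1992 at 21 hpf only and 1996 at 5 hpf only. At 21 hpf 2806 probe sets (30.2%) were at least 2-fold higher and 3053 (32.8%) at least 2-fold lower than at 5 hpf, and 3435 differed by less. Differences of at least 16-fold were measured for 675 probe sets that were higher and 338 that were lower. Only 16 and 14 of these were above the limit at both ages, and the size of the others rests on a level below it. Among the 5306 probe sets above the limit at both ages, 18.3% were at least 2-fold higher and 24.0% at least 2-fold lower. The Pearson correlation between the ages over all probe sets was 0.62, a description across probe sets that share the 2 arrays. In the scatter of levels at the 2 ages, most of the maternal transcripts lay below the diagonal and the ribosomal protein genes above it.

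**Figure D1:**
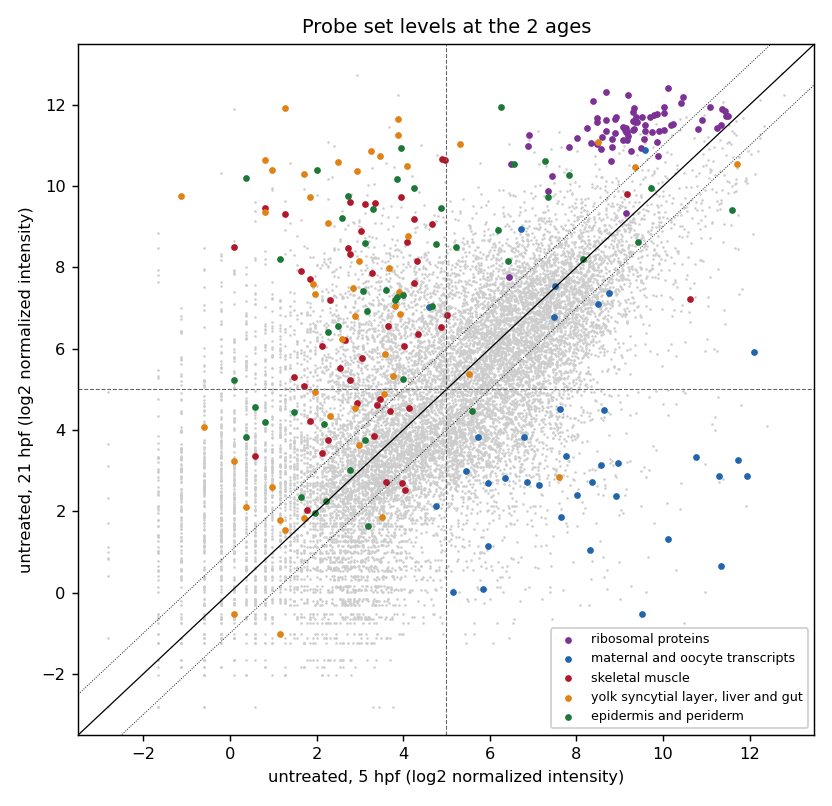
Level of each probe set at 5 hpf (horizontal) and 21 hpf (vertical), in log2 normalized intensity; grey points are all 15502 probe sets and coloured points are 1 probe set for each gene of 5 gene lists. Dashed lines mark log2 5, the solid diagonal equal levels and the dotted diagonals 2-fold differences. Many muscle, yolk layer and epidermal genes lie in the upper left and most maternal transcripts in the lower right.

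With 1 array at each age there is no replicate check of any difference between the ages, and none was tested. The spread between arrays was read from the replicate pairs at 21 hpf, normalized and filtered in the same way. The 2 control morpholino arrays were at least 2-fold apart at 0.242% of probe sets and the 2 Spt5 morpholino arrays at 0.125%. Their median absolute differences were 0.13 on the log2 scale for both pairs, and 1 in 100 probe sets differed by more than 0.76 and 0.70. Between the ages the median absolute difference was 1.43, 1 in 100 probe sets differed by more than 7.62, and 63.0% of probe sets lay at least 2-fold apart. These values include levels measured below the limit. With such levels raised to log2 5, 2167 of the 9294 probe sets were at least 2-fold higher at 21 hpf and 2263 at least 2-fold lower. The untreated array at 21 hpf differed at least 2-fold from the control morpholino arrays at 2.72% and 3.04% of probe sets, and from the Spt5 morpholino arrays at 16.5% and 17.7%. A 2-fold difference between the ages was thus larger than nearly all differences within replicate pairs, although how far untreated embryos vary between clutches was not measured.

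**Figure D2:**
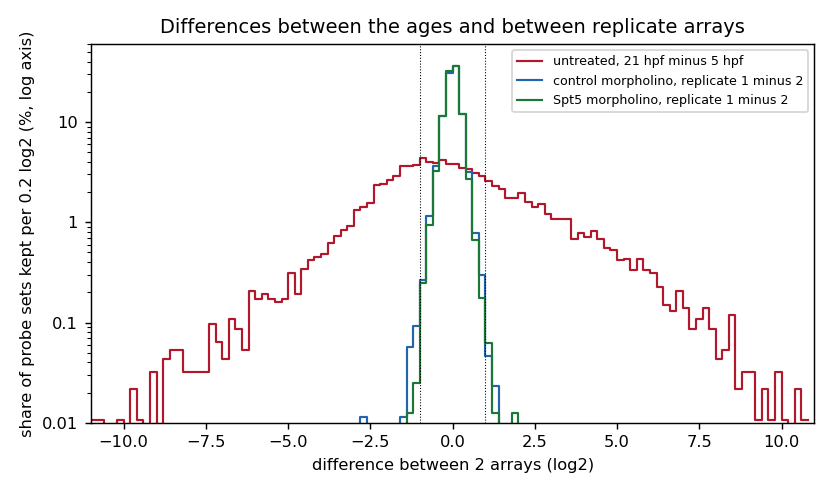
Share of kept probe sets (percent, log axis) by difference between 2 arrays in log2 units, for the untreated ages (red) and for the replicate pairs of control (blue) and Spt5 (green) morpholino arrays. The replicate pairs lie almost wholly within the dotted 2-fold lines, whereas 63.0% of probe sets lie outside them between the ages.

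The scaling set how many genes stood on each side. As deposited, the median intensity was 18.3 at 5 hpf and 40.3 at 21 hpf, and the same mass of total RNA, 5 µg, was labelled. Quantile normalization put the median difference of kept probe sets at -0.16, and 47.9% of the changed probe sets were higher at 21 hpf. With the deposited values the median was 0.70 and the higher share 71.6%, and with arrays centred on their hybridisation spike-ins these were 0.68 and 70.9%. Centring on the poly-A spike-ins gave 0.22 and 59.6%, and centring on the array medians gave -0.73 and 36.2%. Differences below are from quantile normalization and are to be read against its median of -0.16. Where a list changes sides with the scaling, this is stated beside it. Whether a gene reaches 32 depends on the scaling too. As deposited, 6523 probe sets were at 32 or more at 5 hpf and 8618 at 21 hpf. Statements below that a gene was detected or lay below 32 therefore hold for quantile normalization. The 18 probe sets of hybridisation spike-ins differed on average by 0.03 between the ages and the 12 of poly-A spike-ins by 0.39. The Affymetrix control probe sets for acta1, a skeletal actin, and for GAPDH, a glycolytic enzyme, all lay below 32 at 5 hpf, so 3′ to 5′ signal ratios there rest on dim signals. The intensity of the 3′ acta1 probe set was 20.4 at 5 hpf and 3015.8 at 21 hpf.

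By gene, 8793 named genes were on the array, each represented by its probe set with the highest mean level. Of 6281 that reached the limit, 1772 (28.2%) were at least 2-fold higher at 21 hpf and 2099 (33.4%) at least 2-fold lower. Of all 8793 genes, 13.1% were above 32 at 21 hpf only and 14.1% at 5 hpf only. Of the 3887 genes above 32 at both ages, 18.5% were at least 2-fold higher at 21 hpf and 25.3% at least 2-fold lower. A gene above 32 at 1 age only had to differ, so each list below is read from how many of its members on the array fell in each class, against these background shares. For such a gene the fold is a lower limit, computed with the dim level raised to log2 5.

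Maternal and oocyte transcripts were mostly detected at the earlier age only. Of 36 such genes on the array, 27 were above 32 at 5 hpf only, 1 at 21 hpf only, 7 at both ages and 1 at neither. The median difference of the 35 kept was -4.81, or -2.62 with dim levels raised to log2 5. h1m, the linker histone of the egg and early embryo, measured 11.95 at 5 hpf and 2.87 at 21 hpf, at least 123-fold lower. cth1, a CCCH zinc finger gene, measured 11.35 and 0.66, at least 81.7-fold lower. btg4, which in mouse oocytes links maternal mRNAs to deadenylation, measured 9.53 and -0.53, at least 23.0-fold lower. All 3 lay below the limit at 21 hpf.

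Regulators of meiosis and of oocyte translation followed the same course. mos, the kinase that in frog and mouse holds the egg in meiosis, measured 7.64 at 5 hpf and 1.86 at 21 hpf, and wee2, an inhibitor of cyclin-dependent kinase in mammalian oocytes, 8.96 and 3.19. The translational regulators cpeb1b and zar1 measured 8.02 and 2.40, and 6.85 and 2.73. slbp2, a histone mRNA binding protein of the oocyte, measured 8.31 and 1.04. gdf3 (Vg1), a maternally supplied TGF-β ligand needed for mesendoderm, measured 10.78 and 3.33, at least 54.8-fold lower. All of these were detected at 5 hpf only.

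Some listed maternal genes ran the other way. ybx1, an RNA-binding protein that represses translation of maternal messages, was 2.47-fold higher at 21 hpf (9.59 to 10.89), and celf1, another RNA-binding protein, stood at 7.52 and 7.54. esrp1, an epithelial splicing regulator, was above 32 at 21 hpf only (4.60 to 7.02). The probe sets of the claudin gene cldng disagreed, with differences from -6.89 to 2.47 over 4 of them, so its direction is uncertain.

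Genes for the zona pellucida proteins of the egg coat were lower throughout. All 11 kept genes whose symbol is zp and a number were at least 2-fold lower at 21 hpf, with a median of -5.14, or -2.04 with dim levels raised. zp3.1, one of the 12 largest decreases among genes above 32 at both ages, measured 9.97 at 5 hpf and 5.57 at 21 hpf, a 21.2-fold difference. These genes resemble each other in sequence, and their probe sets may share signal. Families were formed from symbols after the values were seen.

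Germ plasm and germ cell genes mark the primordial germ cells, which inherit maternal RNA and protein. Of 16 on the array, 12 were above 32 at 5 hpf only and 4 at both ages, with a median difference of -3.95 (-1.73 with dim levels raised). buc, the organizer of germ plasm, measured 10.11 at 5 hpf and 1.31 at 21 hpf. The RNA helicase ddx4 (vasa) measured 7.54 and 2.90, piwil2, a Piwi protein of the piRNA pathway, 6.49 and 0.85, and dazl, a germ cell RNA-binding protein, 6.97 and 3.2. nanos3, a translational repressor of germ cells, stayed just above the limit at 21 hpf, at 5.07 after 8.26. dnd1, which protects germ cell messages from microRNAs, stood at 5.47 and 5.11, a difference of 1.28-fold.

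The regulators of the blastula and gastrula were spread over all classes, with similar numbers seen at 5 hpf only and at 21 hpf only. Of 55 on the array, 13 were above 32 at 5 hpf only, 12 at 21 hpf only, 17 at both and 13 at neither. The median difference was -0.44, but 0.96 as deposited, 0.87 with spike-in centring and 0.38 with poly-A centring, so the list as a whole has no settled direction. nanog, a maternal factor of genome activation, measured 11.91 at 5 hpf and 2.13 at 21 hpf, at least 120.3-fold lower. pou5f3, the fish relative of mammalian Oct4 and its partner, measured 11.19 and 4.01, at least 73.2-fold lower. sox19b, the third of these activators, measured 8.68 and 6.56, a 4.36-fold difference. The 3 activators were thus all lower at 21 hpf, and the last stayed above the limit.

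Several genes of the early axis and germ layers were lower at 21 hpf. mxtx2, which specifies the yolk syncytial layer, measured 7.60 at 5 hpf and 2.83 at 21 hpf. gsc and chrd of the dorsal organizer measured 6.54 and 2.58, and 5.11 and 2.76, and the Nodal ligand ndr1 5.36 and 3.14. chrd and ndr1 lay just above the limit at 5 hpf, so their lower limits of fold are only 1.08 and 1.28. tdgf1, the Nodal co-receptor, was 7.68-fold lower and above 32 at both ages (8.87 to 5.93). The T-box gene tbx16 was 4.03-fold lower (8.01 to 6.0).

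Other members of the same list were higher later, among them genes used again in tailbud, gut, skin and heart. cdx4, a posterior regulator of Hox genes, measured 0.81 at 5 hpf and 8.20 at 21 hpf, at least 9.20-fold higher. cxcl12b, a chemokine that guides migrating cells, measured 3.19 and 8.62, and tp63, a regulator of basal epidermis, 3.09 and 7.43. gata5, of heart and endoderm, measured 3.8 and 7.05, and tbxta (Brachyury), of notochord and tailbud, 3.82 and 6.31. sox3 and tfap2a, above 32 at both ages, were 2.17-fold and 3.31-fold higher.

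Genes with high signals at 5 hpf and little later formed a varied group by the rule for named genes. Besides h1m, nanog, cth1 and pou5f3, the 12 with the highest 5 hpf levels among genes above 32 at that age only included cldnd, a claudin of tight junctions, at 11.73 and then 3.25. They also included spink2.1, a Kazal-type protease inhibitor (11.39 to 2.79), map1lc3c, an autophagy protein (11.30 to 2.73), and ccna1, the embryonic cyclin A (11.29 to 2.87). uchl1, a ubiquitin hydrolase better known from neurons, measured 11.14 and 4.15. slc16a3b, a monocarboxylate transporter, measured 10.97 and 3.17. Among genes above 32 at both ages, siva1, a pro-apoptotic protein, was 28.2-fold lower (11.43 to 6.61), and gyg1a, which primes glycogen synthesis, 27.8-fold lower (11.03 to 6.23). mkrn4, a makorin, was 22.0-fold lower (11.40 to 6.94), and thy1, a membrane glycoprotein, 21.0-fold lower (11.75 to 7.35).

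At the other end, transcripts for lipid transport and secreted plasma proteins were among those with the highest signals seen at 21 hpf only. Of 49 genes of the yolk syncytial layer, liver and gut, 28 were above 32 at 21 hpf only, 1 at 5 hpf only, 5 at both and 15 at neither. The median difference of the 34 kept was 5.53, or 3.46 with dim levels raised, the largest of the 25 lists on both scales. With the control morpholino arrays taken as 21 hpf it was 3.90, below the 4.02 of skeletal muscle. afp4, an antifreeze-like apolipoprotein of the yolk layer, measured 1.28 at 5 hpf and 11.91 at 21 hpf, at least 121-fold higher. The apolipoprotein genes apoa1a and apoa2, of high density lipoprotein, measured 3.88 and 11.65, and 3.88 and 11.25. apobb.1, the scaffold of yolk-derived lipoprotein particles, measured 3.47 and 10.74, and apoc2, an activator of lipoprotein lipase, -1.13 and 9.75. These apolipoprotein genes had no detectable signal at 5 hpf.

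A different apolipoprotein gene, apoc1, lay just above the limit at 5 hpf and gave the largest increase among genes above 32 at both ages, from 5.32 to 11.05 or 53.2-fold. Its detection at 5 hpf, and so this fold, rests on a level near the limit that depends on the scaling. apoeb, for apolipoprotein E, was 6.0-fold higher (8.51 to 11.09). Plasma carriers followed, with transferrin (tfa) at 2.49 and 10.60, retinol binding protein (rbp4) at 0.81 and 9.36 and the protease inhibitor serpina1l at 2.92 and 10.37. The fatty acid binding proteins fabp1b.1 and fabp2 measured 0.81 and 10.65, and 3.25 and 10.88. The fibrinogen chains fga, fgb and fgg were also above 32 at 21 hpf only, at 7.48, 7.59 and 8.0. fabp10a of hepatocytes, ins of the endocrine pancreas, pdx1 and hnf4a were among the 15 below 32 at both ages. ctsla, a cathepsin of the yolk layer, was 2.25-fold lower at 21 hpf (11.70 to 10.53), but 0.57 higher on the log2 scale as deposited.

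Among other genes above 32 at 21 hpf only, 3 enzymes outside the lists are given as single genes, set together after their values were seen. bhmt, which remethylates homocysteine from betaine, measured 3.68 at 5 hpf and 11.45 at 21 hpf, at least 87.6-fold higher. gamt and gatm, which make creatine, measured 1.39 and 10.58, and 3.79 and 10.47.

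Epidermal and periderm genes made up the next group. Of 47 on the array, 23 were above 32 at 21 hpf only and 1 at 5 hpf only, 12 were above it at both ages, 8 of them higher and 1 lower, and 11 at neither. The median difference was 3.82 (2.44 with dim levels raised). krt4, a keratin of the outer layer, was detected at 5 hpf and was 50.8-fold higher at 21 hpf (6.27 to 11.94). The keratins krt5 and krt17 measured 3.96 and 10.93, and 0.37 and 10.20, and krt8 and krt18a.1 were 15.8-fold and 5.44-fold higher. Of these keratins, krt4, krt8 and krt18a.1 thus had signal above 32 before gastrulation, and krt5 and krt17 did not. The keratins krt91 and krt97 were also above 32 at 21 hpf only, at 0.09 and 4.87 at 5 hpf.

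Junction and cytoskeletal genes of the skin differed among paralogs. The claudin cldni measured 2.72 at 5 hpf and 9.76 at 21 hpf, opposite to cldnd, and cldnb was 9.78-fold higher, whereas cldn7b stood at 8.16 and 8.21. The annexins anxa1a and anxa1c measured 4.24 and 9.95, and 2.02 and 10.41. The envoplakin genes evpla and evplb, for plakin linker proteins of epithelia, measured 2.27 and 6.41, and 1.15 and 8.22. epcam, an epithelial adhesion gene also used by the blastoderm, ran against the list and was 4.53-fold lower at 21 hpf (11.60 to 9.42). That fold depends on the scaling, since no gene of the list was at least 2-fold lower as deposited or with spike-in centring. E-cadherin (cdh1), needed for epiboly, measured 9.42 and 8.62, and the sign of that difference turned as deposited.

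Of 49 skeletal muscle genes, 32 were above 32 at 21 hpf only, none at 5 hpf only, 3 at both and 14 at neither. The median difference of the 35 kept was 4.55 (2.86 with dim levels raised). Contractile genes had the largest values. myl1, a fast myosin light chain, measured 0.81 at 5 hpf and 9.47 at 21 hpf, at least 22.1-fold higher. The fast myosin heavy chain myhz1.3 measured 0.09 and 8.51, the slow myosin heavy chain smyhc1 2.76 and 8.33, and the troponin genes tnni2b.1 and tnnc2.2 1.28 and 9.32, and 3.11 and 9.56. Genes of both fast and slow fibres were therefore detected at 21 hpf.

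Other muscle genes filled in the machinery around the sarcomere. actc1a and actc1b, for sarcomeric actins, lay just below the limit at 5 hpf (4.89 and 4.96) and measured 10.67 and 10.65 at 21 hpf. hsp90aa1.1 and unc45b, the chaperones of myosin folding, measured 3.95 and 9.73, and 4.24 and 7.61. The myogenic factors myog and myf5 measured 1.64 and 7.91, and 2.54 and 5.52, while myod1 and myf6 did not reach 32 at either age with quantile normalization. myod1 measured 4.46 at 21 hpf, near the limit. As deposited or with spike-in centring 40 genes of the list were kept in place of 35, so such absences depend on the scaling. eno3, the muscle enolase, was 10.6-fold lower at 21 hpf (10.63 to 7.21), against the other members of the list.

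In the heart list 8 of 16 genes were above 32 at 21 hpf only, 1 at 5 hpf only and 7 at neither. The cardiac myosin light chains myl7 and cmlc1 measured 0.98 at 5 hpf and 7.24 at 21 hpf, and 2.99 and 7.26. nexn, of the Z-disc, measured 0.58 and 7.38, the cardiac troponin T gene tnnt2a 0.37 and 5.70, and hand2, a factor of heart precursors, 3.19 and 7.39. nkx2.5, tbx5a and gata4 were below 32 on both arrays. has2, which makes the hyaluronan of cardiac jelly, was above 32 at 5 hpf only (6.04 to 4.79).

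The erythroid list was mixed. Of 29 genes, 13 were above 32 at 21 hpf only, 2 at 5 hpf only, 8 at both and 6 at neither, with a median of 1.88 (1.23 with dim levels raised). The embryonic globins hbbe3 and hbae3 measured -0.21 at 5 hpf and 10.32 at 21 hpf, and 3.19 and 10.03, at least 39.9-fold and 32.6-fold higher. alas2, the erythroid first enzyme of heme synthesis, measured 3.66 and 6.46, alad 4.43 and 6.72, and urod and cpox were 3.28-fold and 2.95-fold higher. Other steps of the pathway were lower with quantile normalization. fech, the last enzyme, measured 5.24, just above the limit, and 2.50, at least 1.18-fold lower. slc25a37, the mitochondrial iron importer, measured 6.58 and 3.28, and uros was 2.21-fold lower. Such decreases depend on the scaling. The whole list held 5 genes at least 2-fold lower, against 2 as deposited or with spike-in centring and 3 with poly-A centring. With quantile normalization gata1a and tal1, transcription factors of the lineage, were below 32 on both arrays, as were klf1 and nfe2. At 21 hpf gata1a measured 4.82 and tal1 4.30, and deposited intensities at that age run higher. Whether these 2 genes reach the limit therefore depends on the scaling, and they are not called absent.

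Vessel and white cell genes were seldom detected with quantile normalization, although more of them were with other scalings. Of 13 endothelial genes, 4 were above 32 at 21 hpf only and 8 at neither, with the receptor kdrl at 2.65 and 5.97 and the ETS factor fli1 at 2.76 and 6.27. As deposited 9 of the 13 were kept, 8 of them higher at 21 hpf, and with spike-in centring 8 were kept, 7 of them higher. Of 20 myeloid genes, 13 were below 32 at both ages, among them spi1b, mpx, lyz and csf1ra, which define the lineage. The median of the 7 kept was -1.52, but 1.36 as deposited and 1.33 with spike-in centring, where 10 were kept, so no direction is given for that list.

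Neural genes that reached the limit were mostly above it at 21 hpf only. Of 61 genes of neural progenitors and brain patterning, 35 were above 32 at 21 hpf only, 2 at 5 hpf only, 5 at both and 19 at neither, with a median of 3.40 (1.43 with dim levels raised). gfap, of radial glia, measured -0.21 at 5 hpf and 7.65 at 21 hpf, and fabp7a, a lipid carrier of the same cells, 3.79 and 7.94. The patterning factors meis1b and olig3 measured 1.39 and 8.43, and 0.58 and 7.10, and the nuclear receptor nr2f1a 2.46 and 7.97. Signals of the midbrain and hindbrain boundary genes en2a, en2b and gbx2 were 5.90, 6.63 and 6.51 at 21 hpf and below 32 at 5 hpf.

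Of the 42 kept genes of the list, 4 were at least 2-fold lower by measured level, namely her5, pax2b, otx1 and sox19b. her5, a hairy-related repressor of that boundary, measured 7.93 at 5 hpf and 4.13 at 21 hpf. otx1 was 2.03-fold lower (7.77 to 6.75). pax2b measured 5.03 and 3.88, at least 1.02-fold lower, and its sign turned with the deposited values. Its paralog pax2a was above 32 at 21 hpf only (0.81 to 5.70). The SoxB1 genes differed. Against sox19b, 4.36-fold lower, sox19a was 4.85-fold higher (6.29 to 8.57), and sox2 was above 32 at 21 hpf only (3.79 to 7.88).

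Of 45 genes of neuronal differentiation, 24 were above 32 at 21 hpf only, 1 at 5 hpf only, 3 at both and 17 at neither, with a median of 2.61 (1.47 with dim levels raised). elavl3, an RNA-binding protein of new neurons, measured 3.43 at 5 hpf and 8.24 at 21 hpf, and the proneural factors neurog1 and neurod1 measured 4.86 and 7.20, and 1.15 and 5.43. The Delta ligands dla and dlb measured 2.36 and 7.22, and 2.13 and 7.23. Growth and microtubule genes of axons were also above 32 at 21 hpf, with stmn1b at 7.34, gap43 at 6.14 and tubb5 at 8.70, the last 8.66-fold higher than at 5 hpf. snap25a, of vesicle release, measured 3.69 and 5.85 and sncb, a synuclein, 4.35 and 6.74. The 17 genes below 32 at both ages included gad1b, gad2, th, syt1a and slc32a1, of transmitter synthesis and release.

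Eye genes were detected at the later age or not at all. Of 26, 10 were above 32 at 21 hpf only and 16 at neither, with a median of 3.58 for the 10 (1.26 with dim levels raised). Those detected included factors of the eye field and optic cup, with pax6a at 2.02 and 6.29, rx1 at 2.54 and 6.24, mab21l1 at 1.85 and 7.13 and mab21l2 at 3.28 and 7.10. Other factors of the same tissue (rx3, six6a, six6b, lhx2a, vsx1, vax1, vax2) were below 32 on both arrays, as were the lens crystallins cryaa, crybb1 and cryba4 and the photoreceptor genes crx and rcvrn2. Of the 10 detected, rx1, rx2, pax6a, pax6b, six3a and six3b were also counted among neural progenitor and brain patterning genes. dct was also counted in the neural crest and pigment list.

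In the neural crest and pigment list, 11 of 27 genes were above 32 at 21 hpf only, 7 at both, 3 of them higher and none lower, and 9 at neither. crestin, a zebrafish crest transcript, measured 4.44 at 5 hpf and 7.85 at 21 hpf, and sox10, the crest regulator, 3.69 and 6.46. gch2 and impdh1b, for the pteridine and purine pathways of pigment cells, measured 3.05 and 7.85, and 4.27 and 8.05, and paics of purine synthesis was 4.90-fold higher. dct, of melanin synthesis, measured 4.30 and 6.37, while tyr, pmelb and mitfa did not reach 32 with quantile normalization. mitfa measured 4.55 at 21 hpf, and 20 genes of the list were kept as deposited in place of 18. The crest genes snai2, mych and sox9b had signal at 5 hpf that differed little at 21 hpf, at 7.58 and 7.29, 7.77 and 7.72, and 6.62 and 6.67.

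Hox genes, which give position along the trunk, were detected at the later age alone. Of 42 on the array, 26 were above 32 at 21 hpf only, none at 5 hpf and 16 at neither, so no Hox gene on the array reached the limit before gastrulation. The kept genes spanned groups from anterior to posterior. hoxb3a measured 3.6 at 5 hpf and 7.53 at 21 hpf, hoxc8a 3.14 and 8.05, hoxa10b 0.09 and 5.70, and hoxc13a 0.37 and 6.4. The median difference was 3.41, and 0.79 with dim levels raised, since many lay close above the limit.

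Somite segmentation and Notch genes included 18 of 32 above 32 at 21 hpf only, 1 at 5 hpf only, 7 at both and 6 at neither. msgn1, of presomitic mesoderm, measured 2.41 at 5 hpf and 8.42 at 21 hpf, and aldh1a2, which makes retinoic acid, 0.98 and 7.22. tcf15, of the somite epithelium, measured 1.97 and 6.59, and her9, a hairy-related repressor, 1.79 and 8.49. The clock genes her1 and her7 were below 32 at both ages. Several pathway genes were already present in the blastula. The ligand dld stood at 8.14 and 8.38, the Notch modifier lfng at 8.42 and 9.20 and the receptor notch1a at 6.53 and 5.91, and snai1a was 3.02-fold lower (8.93 to 7.33).

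Notochord and hatching gland genes had 13 of 22 members above 32 at 21 hpf only, 1 at 5 hpf only, 6 at both and 2 at neither. The sheath collagens col2a1a and col9a3 measured 1.28 at 5 hpf and 8.92 at 21 hpf, and 0.37 and 8.01. cav1, a coat protein of caveolae, measured 3.38 and 8.73, and cd63, a tetraspanin of the hatching gland, 4.49 and 9.54. noto, the early notochord factor, was above 32 at 5 hpf only (7.33 to 4.57). Of all 14 kept genes whose symbol is col and a number, those of this list included, 13 were at least 2-fold higher and none lower, with a median of 4.67 (2.85 with dim levels raised). Among them col1a1a measured 3.69 and 8.48, and col12a1b, the exception, 7.53 and 7.55.

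Of 21 pronephric genes, 6 were above 32 at 21 hpf only, 4 at both and 11 at neither. cdh17, a kidney cadherin, measured 1.85 at 5 hpf and 7.03 at 21 hpf, the sodium pump subunit atp1a1a.4 4.30 and 7.09, and its partner atp1b1a was 6.97-fold higher. trpm7, a divalent cation channel, was 3.88-fold lower (7.99 to 6.04).

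**Figure D3:**
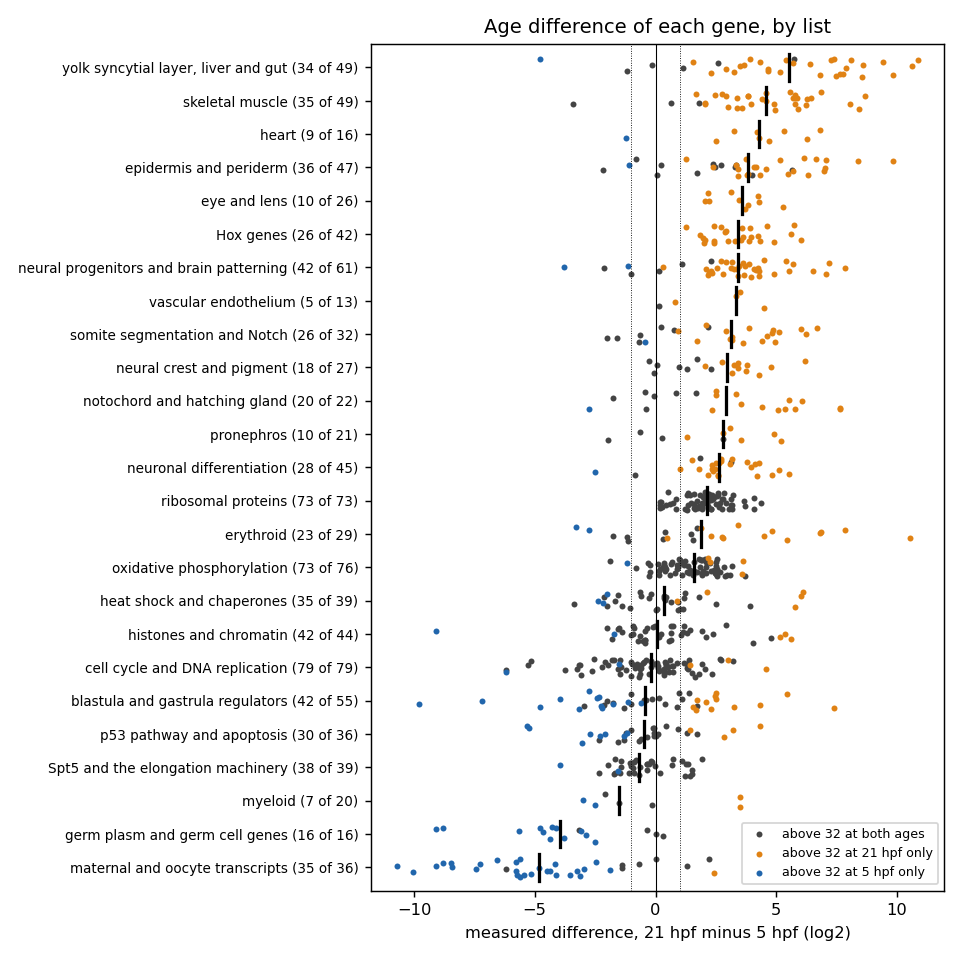
Measured difference between 21 and 5 hpf in log2 units (horizontal) for each kept gene of the 25 lists, with kept and on-array counts in brackets; black points are genes above 32 at both ages, orange at 21 hpf only and blue at 5 hpf only, and black bars are list medians. Medians of the tissue lists other than myeloid and germ cell lie to the right of the dotted 2-fold lines (yolk layer, liver and gut median 5.53) and maternal transcripts to the left (-4.81), with the cell cycle list around 0.

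Genes of the cell cycle and DNA replication were nearly all detected at both ages, with differences in both directions. Of 79 on the array, 74 were above 32 at both ages, of which 15 were higher and 21 lower at 21 hpf. These counts lie near the shares of all named genes above 32 at both ages, 18.5% higher and 25.3% lower. The list median was -0.18, but 0.58 as deposited and 0.19 with poly-A centring, so only the spread within the list is described. ccnb2, a mitotic cyclin, had the largest decrease among all genes above 32 at both ages, from 12.10 at 5 hpf to 5.92 at 21 hpf, or 72.6-fold. ccnb1 was 9.57-fold lower (12.08 to 8.82) and ccna2 9.02-fold lower (11.65 to 8.48). cdc20, which activates the anaphase-promoting complex, was 8.60-fold lower (10.73 to 7.62). Other mitotic genes were higher, with ccnb3, a further B-type cyclin, 2.28-fold, the spindle motor kif11 3.11-fold and the spindle protein gene nusap1 3.5-fold higher.

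Several genes of replication licensing and S phase entry were lower. gmnn (geminin), the inhibitor of licensing, was 39.3-fold lower (11.25 to 5.96), ccne1, the cyclin of S phase entry, 36.0-fold lower (11.17 to 6.0), and cdt1, the loader of the replicative helicase, 13.5-fold lower (11.03 to 7.28). cdc6, which loads the helicase with cdt1, was 6.23-fold lower. Of the origin recognition complex, orc1 and orc6 were 4.71-fold and 5.8-fold lower, and orc2, orc3, orc4 and orc5 were within 2-fold, at differences of -0.28, -0.86, 0.62 and 0.10. fbxo5 (Emi1), an inhibitor of the anaphase-promoting complex, was 8.65-fold lower.

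Of the core subunits of the replicative helicase, mcm2, mcm3 and mcm5 were 4.09-fold, 9.33-fold and 2.57-fold higher at 21 hpf, and mcm4 and mcm7 were within 2-fold (differences of 0.73 and 0.38). Of its activators, gins3 was 2.02-fold lower, and cdc45, gins1 and gins2 differed by -0.04, -0.18 and -0.63. cdk1, the kinase partner of the mitotic cyclins, was 6.43-fold higher (6.02 to 8.70). rpa1, of the single-strand binding complex, was 3.75-fold higher, the spindle checkpoint protein gene bub3 5.01-fold and the importin kpna2 6.49-fold. pcna, the sliding clamp, stood at 11.45 and 10.77, and plk1, a mitotic kinase, at 9.75 and 9.10. The values of pcna and plk1 changed sign as deposited, and those of the genes given here as higher kept theirs under the scalings tried.

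Some related genes differed from each other between the ages, and those given here were chosen after their values were seen. mcm6l, the maternal helicase subunit, measured 8.93 at 5 hpf and 2.37 at 21 hpf, while mcm6 measured 3.87 and 8.46. birc5b, a survivin of the chromosomal passenger complex, measured 8.61 and 2.41, while birc5a stood at 7.38 and 8.06. Against the linker histone h1m, histh1l1 was 18.8-fold higher (5.74 to 9.97), and h1-10 was above 32 at 21 hpf only (0.81 to 5.96). rpl5a, for a large-subunit ribosomal protein, was 17.1-fold higher (6.89 to 10.98), while rpl5b stood at 11.26 and 11.43. hmgb3a, a chromatin architecture protein, was 16.2-fold higher and hmgb3b 2.81-fold lower.

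**Figure D4:**
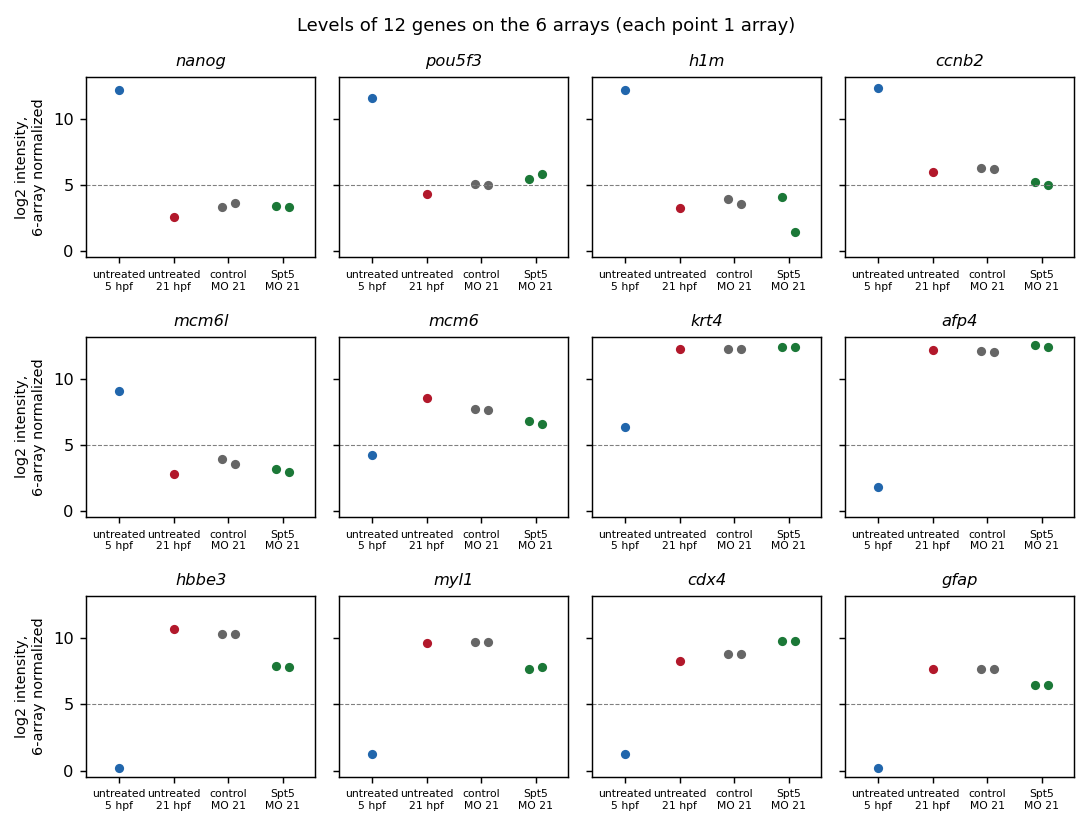
Level of 12 genes on each of the 6 arrays in log2 intensity, quantile normalized over all 6; each point is 1 array and the dashed line is log2 5. nanog, pou5f3, h1m, ccnb2 and mcm6l stand high at 5 hpf alone (blue), and the other 7 genes stand higher on all 5 arrays at 21 hpf than at 5 hpf.

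The 4 morpholino arrays allow the later level to be seen on other samples, with all 6 arrays normalized together. nanog measured 12.18 at 5 hpf, 2.58 on the untreated array at 21 hpf, 3.37 and 3.67 with the control morpholino and 3.41 and 3.37 with the Spt5 morpholino. krt4 measured 6.31 at 5 hpf, 12.21 in untreated embryos, 12.28 and 12.21 after control and 12.43 and 12.42 after Spt5 morpholino injection. hbbe3 measured 0.16 at 5 hpf, 10.67 in untreated embryos, 10.35 and 10.29 after control and 7.89 and 7.84 after Spt5 morpholino injection. In each case all 5 later arrays lay on the same side of the single array at 5 hpf.

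casp8, an initiator caspase, was an exception. It measured 5.98 at 5 hpf and 1.06 on the untreated array at 21 hpf, but 6.27 and 6.02 with the control morpholino and 7.15 and 6.96 with the Spt5 morpholino. Its decrease therefore rests on the 1 untreated array at 21 hpf.

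Ribosomal protein genes were higher at 21 hpf with few exceptions. All 73 on the array were above 32 at both ages, 62 were at least 2-fold higher at 21 hpf and none was lower, with a median of 2.13. The measured differences ran from 0.17 to 4.37, and the count of higher genes was 73 as deposited and 69 with median centring. faua, which fuses a ubiquitin-like domain to a small-subunit protein, was 20.7-fold higher (6.90 to 11.27). rplp0 and rplp2, of the ribosomal stalk, were 13.1-fold and 16.7-fold higher, and rps2 was 12.5-fold higher (8.68 to 12.33). At the low end rps20 stood at 11.33 and 11.50, rpl12 at 11.51 and 11.72, and rack1, a scaffold on the small subunit, at 11.46 and 11.73.

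Genes of mitochondrial respiration were also mostly higher. Of 76 genes of oxidative phosphorylation, 68 were above 32 at both ages, 44 of them higher and 1 lower. A further 4 were above it at 21 hpf only and 1 at 5 hpf only, and the list median was 1.59. Of the 73 kept, 48 were at least 2-fold higher, against 59 as deposited and 36 with median centring, where the median was 0.97. cox8a, a cytochrome oxidase subunit, was 13.0-fold higher (6.21 to 9.91), and uqcrq of complex III 9.04-fold higher (5.89 to 9.06). cox7b and the ATP synthase subunit atp5mf were 8.39-fold and 7.72-fold higher. The exception above 32 at both ages was atp5mc1, of the ATP synthase ring, 3.72-fold lower (11.33 to 9.43). As deposited, and with either kind of spike-in centring, no gene of the list was at least 2-fold lower. COX1, encoded in mitochondrial DNA, stood at 12.75 and 12.79. Of 37 kept genes for large-subunit mitochondrial ribosomal proteins (mrpl), 20 were at least 2-fold higher and none lower, with a median of 1.3.

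Proteasome subunits were also higher. Of 37 kept genes with symbols from psma to psmd, 21 were at least 2-fold higher and none lower, with a median of 1.2. psmb6 and psma1, of the core particle, were 12.7-fold and 9.33-fold higher. By contrast, in families of ubiquitin ligase adaptors and deubiquitinases more members were lower than higher with quantile normalization. Of 15 kept fbxo genes, 9 were lower and 2 higher, with the muscle atrophy ligase fbxo32 at 8.54 at 5 hpf and 1.26 at 21 hpf. Of 20 kept usp genes, 12 were lower and 1 higher, and of 11 kept cnot genes, for the CCR4-NOT deadenylase that shortens poly(A) tails, 6 were lower and 1 higher. In that complex cnot8, a catalytic subunit, was 6.99-fold lower (10.32 to 7.52). These families were compared with 33.4% of all kept genes lower. They were picked from 66 families after the values were seen. With dim levels raised their medians were -1.52 (fbxo), -0.88 (usp) and -0.71 (cnot). All symbol families were counted with quantile normalization only, so their direction under other scalings is not given.

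Chromatin genes included large differences in both directions around a median of 0.06. Of 44 on the array, 37 were above 32 at both ages, 11 higher and 5 lower, 3 were above it at 21 hpf only and 2 at 5 hpf only. The nucleosome-binding proteins hmgn6, hmgn2 and hmgn3 were higher, hmgn6 27.7-fold (5.77 to 10.56), hmgn2 7.45-fold (7.60 to 10.50) and hmgn3 at 3.50 and then 9.10. macroh2a2, a histone variant of repressed chromatin, measured 2.92 and 8.27. The maintenance DNA methyltransferase dnmt1 was 4.04-fold lower (9.96 to 7.95) and its cofactor uhrf1 2.60-fold lower, while the de novo enzyme dnmt3ba was 5.27-fold higher (6.22 to 8.62). hdac1 stood at 10.37 and 9.96. As deposited the list median was 1.17 and 24 genes were higher and 3 lower, so no direction is given for the list.

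Genes of Spt5 and the elongation machinery were detected at both ages in 36 of 39 cases, of which 8 were higher and 12 lower at 21 hpf, with a median of -0.50. Of all 38 kept, 8 were higher and 14 (36.8%) lower, close to the 33.4% of all kept genes, with a median of -0.67. The counts turned round with the scaling, to 10 higher and 5 lower as deposited and 1 higher and 23 lower with median centring, while the median ran from -1.38 to -0.24. No direction is given for the list. supt5h, which encodes Spt5, measured 7.02 at 5 hpf and 7.68 at 21 hpf, a 1.59-fold difference whose sign turned with median centring. All 4 genes of NELF, the partner of DSIF in pausing, were at least 2-fold lower. nelfa was 5.01-fold lower (8.18 to 5.85), nelfb 3.18-fold (7.78 to 6.11), nelfcd 2.06-fold (8.0 to 6.96) and nelfe 2.02-fold (7.61 to 6.59). The last 2 lie at the 2-fold limit, and all 4 kept their sign under the scalings tried.

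The kinase P-TEFb, which releases paused polymerase, and its regulators were mixed. cdk9 and its cyclin ccnt2b were 2.04-fold and 2.66-fold lower. Of the complex that sequesters the kinase, larp7 was 3.18-fold lower, the capping enzyme mepcea measured 8.79 at 5 hpf and 4.84 at 21 hpf, and hexim1 was 2.85-fold higher. tcea1 (TFIIS), which rescues stalled polymerase, was 3.26-fold lower. The PAF complex genes differed, with leo1 and ctr9 2.83-fold and 2.3-fold higher and cdc73 2.14-fold lower. paf1, rtf1 and skic8 of that complex were within 2-fold, at differences of -0.91, -0.68 and 0.20. Among polymerase subunits polr2a measured 7.81 and 6.89, and polr2eb was 3.83-fold higher. These folds depend on the scaling. With median centring only 1 gene of the whole list was at least 2-fold higher, so most of hexim1, leo1, ctr9 and polr2eb were not. As deposited only 5 genes of the list were at least 2-fold lower.

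The chaperone list held differences in both directions. Of 39 on the array, 27 were above 32 at both ages, 6 higher and 7 lower, 5 were above it at 21 hpf only and 3 at 5 hpf only. The 6 and 7 of 27 lie near the 18.5% and 25.3% of all named genes above 32 at both ages. serpinh1b (Hsp47), the collagen chaperone, measured 2.54 at 5 hpf and 8.65 at 21 hpf, and hspb8 1.15 and 7.19. hspe1 of the mitochondrial chaperonin was 15.0-fold higher (5.61 to 9.52), whereas its partner hspd1 stood at 8.80 and 9.19, and cct4 and cct5 of the cytosolic chaperonin 5.66-fold and 3.44-fold higher. The endoplasmic reticulum chaperones hspa5 (BiP) and hsp90b1 were 4.06-fold and 4.34-fold lower, and dnajb1b was 10.3-fold lower (10.44 to 7.07). hspa8 and hsp90ab1, the constitutive cytosolic chaperones, stood at 11.85 and 11.68, and 11.01 and 11.04. The list median was 0.35, and 1.41 as deposited.

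Among 36 genes of the p53 pathway and apoptosis, 8 were above 32 at 5 hpf only, 4 at 21 hpf only, 18 at both and 6 at neither. bokb, a pro-apoptotic Bcl-2 relative, measured 8.19 at 5 hpf and 2.95 at 21 hpf, bbc3 (Puma) 5.39 and 2.35, and casp9 6.88 and 4.57. bcl2l10, an anti-apoptotic relative, was 5.12-fold lower and the antiproliferative btg2 2.92-fold lower, while btg1 was 3.27-fold higher. mdm2, the ubiquitin ligase of p53, stood at 7.4 and 7.33. The list median was -0.48, but 0.34 as deposited, so no direction is given for the list.

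Probe sets of 1 gene mostly gave the same side. Of 974 genes with over 1 kept probe set, 200 had all of them at least 2-fold higher and 251 all at least 2-fold lower. In 19 genes probe sets lay at least 2-fold apart from equality in opposite directions, among them cldng, the thymidine kinase tk1 (-2.67 to 1.42) and khdrbs1a, an RNA-binding protein (-1.78 to 1.61 over 5). No direction is read from these 19.

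The design text sets genes that respond to the Spt5 morpholino against their difference between these ages. Probe sets were chosen on the 4 morpholino arrays alone, which are not used in the age difference. Both Spt5 arrays had to lie at least 2-fold below both control arrays, or both at least 2-fold above them. At least 2 of the 4 arrays had to reach log2 5. The set lower with the Spt5 morpholino held 423 probe sets, 406 of them kept, of which 216 (53.2%) were higher at 21 than at 5 hpf in untreated embryos and 48 (11.8%) lower. Its median age difference was 1.28, or 1.44 above that of all kept probe sets, and 1.06 to 1.31 above it when 1 morpholino array at a time was left out. Choosing a probe set as lower requires signal at 21 hpf on the control morpholino arrays. Of all 7391 kept probe sets above 32 on both of those arrays, 36.5% were higher with age and 20.1% lower, with a median of 0.30. Among probe sets above 32 at both ages, 44 of the set's 225 (19.6%) were higher and 44 (19.6%) lower, against 18.7% and 23.6% of all those above 32 on both control arrays.

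Genes are named from the extremes of the lower set and do not describe it as a whole. hbbe3, myl1, myhz1.3 and rbp4 were among its largest age differences, each above 32 at 21 hpf only. In the same set, ccnb1, ccna2 and cdc20 were 9.57-fold, 9.02-fold and 8.60-fold lower at 21 than at 5 hpf. On the morpholino arrays normalized among themselves, ccnb1 measured 7.92 and 7.96 after Spt5 morpholino injection and 9.0 on both control arrays. The set thus held genes with both directions of age difference.

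The set higher with the Spt5 morpholino held 230 probe sets, 164 of them kept, and 54 (32.9%) were higher with age and 51 (31.1%) lower. Its median was -0.06, against 0.24 for all 7199 kept probe sets above 32 on both Spt5 morpholino arrays, of which 35.1% were higher and 21.8% lower. Relative to all kept probe sets the median was 0.10, and from -0.10 (without control replicate 1) to 0.51 (without Spt5 replicate 1) when 1 morpholino array was left out. Among the set's 87 probe sets above 32 at both ages, 12 (13.8%) were higher and 23 (26.4%) lower. Of all those above 32 at both ages and on both Spt5 morpholino arrays, 19.2% were higher and 23.3% lower. slc16a3b, zp3.1, isg15 and foxh1, a Nodal effector, were among the set's largest decreases with age. foxh1 measured 7.62 at 5 hpf and 3.11 at 21 hpf in untreated embryos, and 5.56 and 5.69 with the Spt5 morpholino against 3.52 and 4.19 with the control. At the other end cdx4 and lamb1a, a basement membrane laminin chain, were above 32 at 21 hpf only in untreated embryos, at 8.20 and 8.76. isg15, an interferon-stimulated ubiquitin-like gene, measured 2.06 in untreated embryos at 21 hpf and 6.03 and 6.05 with the control morpholino, so for this gene the untreated and control arrays also stood apart.

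**Figure D5:**
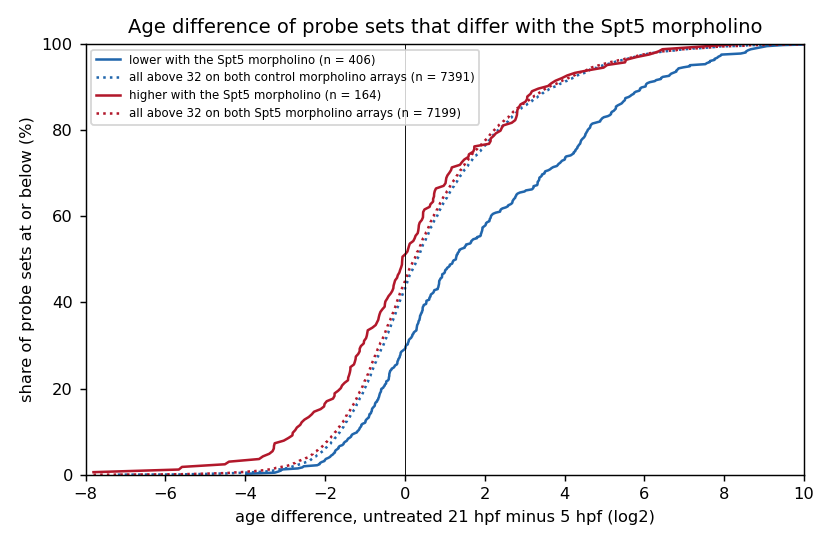
Cumulative share of probe sets (percent) by age difference in untreated embryos (log2), for the sets lower (blue) and higher (red) with the Spt5 morpholino and, dotted, for all kept probe sets above 32 on both control or both Spt5 morpholino arrays. The lower set (median 1.28) lies to the right of its comparison (median 0.30), and the higher set (median -0.06) to the left of its own (median 0.24).

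Gene span was set beside the age difference as a feature the choice of samples did not use. In the RefSeq gene table of assembly GRCz12tu the median span was 12.2 kb for the 1768 genes that were higher at 21 hpf and had a span, 16.9 kb for lower genes and 15.5 kb for genes within 2-fold. The order was not the same at larger differences, where genes at least 16-fold higher had a median span of 13.2 kb and those at least 16-fold lower 10.6 kb. The lower genes thus had longer spans at the 2-fold limit and shorter ones at 16-fold, and no test was made.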

How the data were processed

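Whole-embryo total RNA was prepared with Sepasol and RNeasy columns, per the labels' protocols, and 5 µg was labelled by a one-cycle protocol. That labelling starts at the poly(A) tail, so tail length could change a signal. The authors deposited linear intensities, 1 for each probe set on each array. GCRMA is named in the submitters' processing notes, with its version and settings not given in the sources used here. Since the distributions of the deposited columns differ, log2 values were quantile normalized over the 2 untreated arrays (Python 3.11.15, numpy 2.4.6, pandas 2.3.3), which assumes like distributions at both ages.

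Control probe sets (115 of 15617) and those below log2 5 on both arrays were left out. The platform annotation gives 1 symbol for 10802 probe sets, more than 1 for 135 and none for 4680. Of the 10802, Entrez identifiers linked 10718 to current RefSeq names (assembly GRCz12tu), and the other 84 are named as on the platform. The arrays name no genome build, so no coordinates are given.

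No test was made, since each age has 1 array, which also sets the precision. The counting of differences was tested on simulated data, with known shifts put into a small share of the probe sets of a replicate pair. The shifted probe sets lay well above the limit on both arrays. The ages differ at far more probe sets, many of them dim, so that test checks the counting step and not the counts reported. The named genes were the 12 largest and strongest of each class and the extremes of each list, and further members were named after their values were seen. The comparison, the 25 lists and the rules were chosen with earlier results of these data known.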

Additional observations from a re-analysis of the deposited data

How the results depend on the processing

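With the deposited values, 4292 probe sets were at least 2-fold higher and 1705 lower, with 3096 above 32 at 21 hpf only and 1001 at 5 hpf only. Spike-in centring gave 4230, 1740, 3068 and 1013. Keeping dim probe sets gave 4298 higher and 4934 lower, with signal required at both ages 971 and 1275, and at 4-fold 1828 and 1515. Fewer probe sets enter the last 2 by construction. With dim levels raised to log2 5, a setting added after the plan, 2167 were higher and 2263 lower. The cause of the shift under scaling was not tested. The median of the Spt5-lower set, 1.44 above all kept probe sets, was 1.19 as deposited and 1.06 to 1.31 leaving out 1 morpholino array at a time. That of the higher set, 0.10, ran from -0.10 to 0.51, and it changed sign without control replicate 1. Its position is therefore not settled. No paired analysis was possible because no result comes from a test. Of 25 list medians, taken relative to all kept probe sets and with genes and probe sets chosen again under each setting, 1 turned its sign from a value past 2-fold. That was the myeloid list, -1.35 with quantile normalization and 1.78 both as deposited and with spike-in centring. Of 265 named genes, 8 turned their sign from a value past 2-fold. Genes that changed sign from within 2-fold, such as cdh1 and pcna, are not among these 8. Values that changed in size but kept their sign are not counted here either. As deposited and with spike-in centring respectively, ccng1 measured 0.35 and 0.33, ctsla 0.57 and 0.55, ctss2.1 0.088 and 0.063, fth1a 0.30 and 0.27, hnrnpa0l 0.40 and 0.37, khdrbs1a 0.67 and 0.64, and pax2b 0.13 and 0.10. With poly-A centring, chosen after seeing the data, ctsla measured 0.19, hnrnpa0l 0.011 and khdrbs1a 0.28. casp8 measured 0.17 with the control morpholino arrays in place of the untreated array at 21 hpf.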
